A study of Mus musculus with 8 samples.

Results

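The genes described are 10 mouse genes of the antioxidant programme controlled by the transcription factor NRF2: Hmox1, Srxn1, Txnrd1, Gclc, Gclm, Slc7a11, Gsr, Nqo1, Ephx1 and Keap1. They were taken by gene symbol from a deposited expression table of 18501 genes, and all 10 passed the filter on low counts that left 14359 genes to be tested. RNA-seq was done on chondrocytes, the cells of cartilage, in 2 mouse lines with an altered gene of the microRNA miR-140, to ask what each alteration changes. The CG mutants carry a mutation in the seed of the 3p arm, the bases by which that arm recognises its targets. The CT mutants carry a single C>T change. The study describes both lines as overexpressing the 5p arm. CG mutants, CG wild types, CT mutants and CT wild types had 2 libraries each, all from rib cartilage of CD1 mice at 10 days of age, digested with collagenase II, after which the cells were plated and lysed in TRIzol. The sources used here state neither the position of the C>T change, nor the sex of the animals, nor whether a pair of libraries stands for separate animals. P-values therefore measure the spread between libraries, which may be technical in part. The pairs of CG wild types, CT mutants and CT wild types differed widely in counts of Y-linked Ddx3y, given below. They were thus not repeats of the same material, while the CG mutant pair was alike in this gene.

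NRF2, encoded by Nfe2l2, is held at a low level in resting cells by KEAP1, an adaptor that presents it to a ubiquitin ligase built on CUL3. Electrophiles and oxidants modify KEAP1, NRF2 then accumulates, pairs with a small MAF protein and binds antioxidant response elements near its target genes, while BACH1 competes for the same elements. The targets make and recycle glutathione and thioredoxin, break down heme and detoxify quinones and epoxides, and in cartilage the pathway is known as a defence of chondrocytes against oxidative stress.

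Total counts ran from 26536868 to 28678641 per library. All 10 chondrocyte markers looked for were present, with the cartilage collagen gene Col2a1 between 4855 and 10637 FPKM (the authors' values of fragments scaled by transcript length and sequencing depth). On the first principal component (64.5% of the variance) the lines were apart. The second (12.2%) placed CG mutant replicate 1 at 47 and CG mutant replicate 2 at -8.4, so the CG values of the 10 genes, and the counts over the other gene lists, are also given without each of these libraries. Counts of Y-linked Ddx3y were 2231 and 2360 in CG mutants and 2 and 2511 in CG wild types, and 3512 and 30 in CT mutants and 3669 and 10 in CT wild types, so the CG comparison is not balanced for this gene.

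The only arm of miR-140 with an entry in the RefSeq table was 3p, shown here because its seed is the part mutated in the CG line. The sequence is the unmutated one, on chromosome 8 (chr8:107551288-107551308, plus strand, GRCm38.p6), with the seed, bases 2 to 8, in capitals. miR-140-5p had no entry.
mmu-miR-140-3p: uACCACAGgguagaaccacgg
The 7 letters that pair with this seed, CTGTGGT, were searched in the longest annotated 3′ UTR of each gene (GENCODE M21, at least 50 bases), on the transcribed strand only. They occurred in 19.2% of 13829 tested genes and in 1 of the 10 NRF2 targets, Nqo1, starting at base 316 of its UTR of 594 bases. Among 7 regulators of the pathway they occurred in 4, namely Cul3, Mafg, Maff and Mafk. The match in Nqo1 is in capitals.
Nqo1 3′ UTR: taattacctctCTGTGGTttagggcagaa

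Promoter sequences of 300 bases, from 250 before to 50 after an annotated start, were found in the RefSeq table (GRCm38.p6) for 7 of the 10 targets. Hmox1, Gclc and Gsr had no entry. The core of the antioxidant response element, TGACNNNGC on either strand, was present in 3 of the 9 promoters that these 7 genes have in the table, 1 each of Gclm, Txnrd1 and Srxn1, and in 12.4% of all 32851 promoters. These 3 matches are printed below. Genes without a match in these 300 bases also had log2 fold changes below 0 in the CG mutants, as did 49.4% of all tested genes. They were Ephx1 (-0.98), Slc7a11 (-0.82), Keap1 (-0.18) and Nqo1 (-0.14). Sequence outside the 300 bases was not searched, and a link between a match and a fold change was not tested. Capitals mark the motif, which in all 3 lies on the minus strand and so reads as GC, 3 bases, then GTCA. It starts at position -134 from the start site in Gclm, at -92 in Txnrd1 and at 28 in Srxn1.
Gclm, chr3:122245398-122245456, plus strand: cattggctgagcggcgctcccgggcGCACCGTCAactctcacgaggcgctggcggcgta
Txnrd1, chr10:82859089-82859147, plus strand: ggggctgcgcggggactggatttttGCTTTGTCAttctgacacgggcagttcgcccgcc
Srxn1, chr2:152105527-152105573, plus strand: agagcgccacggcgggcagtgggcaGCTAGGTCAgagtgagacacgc
The AP-1 motif TGACTCA, which resembles the antioxidant response element, was searched on both strands as well and occurred in 5.2% of promoters. Srxn1 was the only one of the 7 genes with a match and had 2 of them, at -102 and -45, printed with the motif in capitals. No match of this motif overlapped a match of the first.
Srxn1, chr2:152105397-152105453, plus strand: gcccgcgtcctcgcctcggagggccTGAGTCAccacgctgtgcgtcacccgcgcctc
Srxn1, chr2:152105454-152105510, plus strand: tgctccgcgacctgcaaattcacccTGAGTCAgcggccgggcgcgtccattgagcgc
Nfe2l2 itself has a match to the element core, at -240 in its promoter, shown with the motif in capitals because NRF2 is known to act on its own gene.
Nfe2l2, chr2:75704870-75704913, minus strand: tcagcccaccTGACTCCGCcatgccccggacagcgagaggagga
A match is a description of these letters and was not tested as a site.

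Levels differed widely between the 10 genes. On the FPKM scale, which corrects for transcript length, Hmox1 had the highest mean over the 8 libraries, 1310 FPKM, followed by Srxn1 at 213.8 and Txnrd1 at 190.9. Nqo1 averaged 79.59 FPKM, Gclm 63.69, Gclc 48.73 and Gsr 36.47. Slc7a11 at 25.97, Ephx1 at 21.24 and Keap1 at 17.85 FPKM were the lowest. The ratio of the highest to the lowest library was 8.14 for Srxn1, 7.68 for Hmox1 and 5.09 for Slc7a11, and was smallest, at 2.18, for Keap1.

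**Figure D1:**
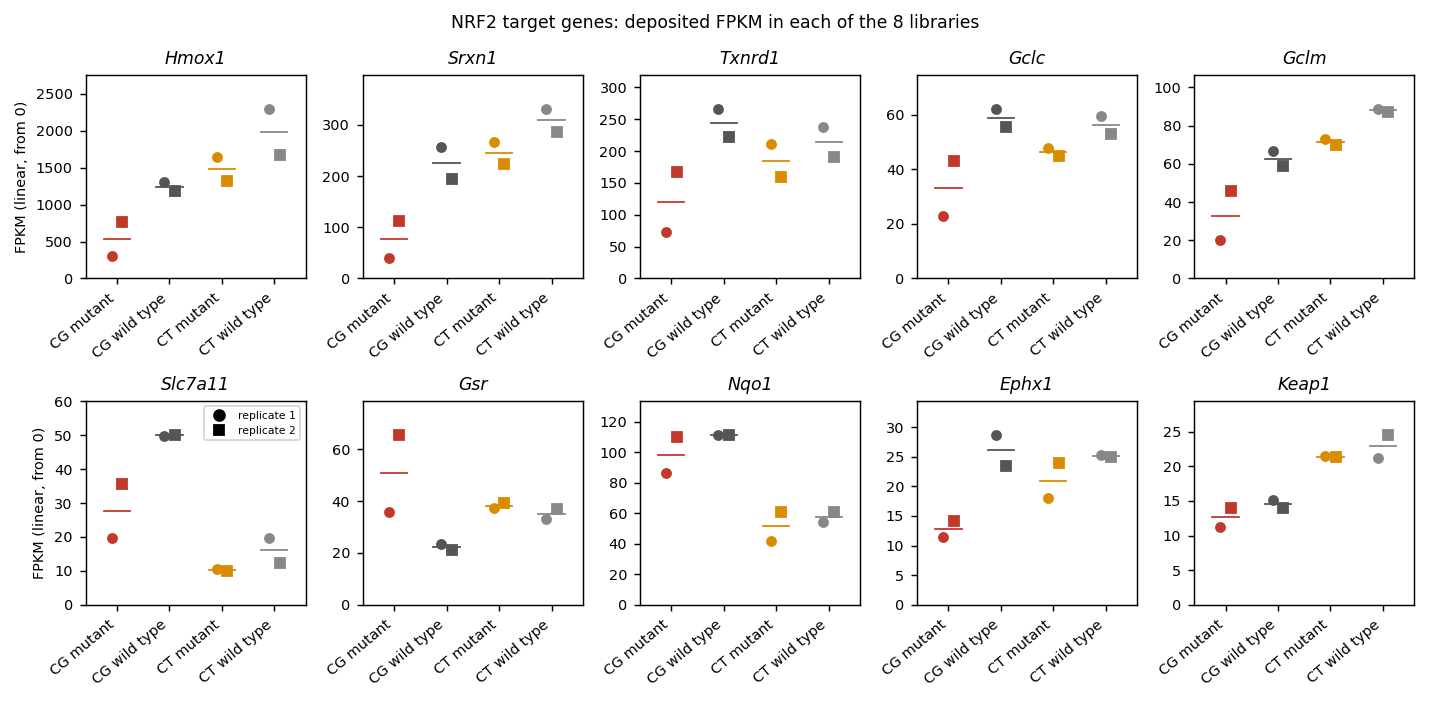
Deposited FPKM (linear axis from 0, one scale per gene) of the 10 NRF2 target genes in CG mutants, CG wild types, CT mutants and CT wild types. Circles are replicate 1, squares replicate 2 and lines group means; for 8 genes both CG mutant libraries lie below both CG wild types, for Gsr they lie above.

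The first comparison sets CG mutants against CG wild types. In the CG mutants 9 of the 10 genes had a log2 fold change below 0, as did 49.4% of all tested genes, and 1, Gsr, had one above 0, with values from -1.55 to 1.22. None passed an adjusted p of 0.05 in edgeR's quasi-likelihood test, a threshold that 0.00696% of all tested genes passed. At an unadjusted p under 0.05, 7 of the 10 were lower and 1 was higher, where 4.87% of all genes were lower and 6.5% higher. The median log2 fold change of the 10 genes was -0.86, and that of all tested genes was 0.

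Hmox1 encodes heme oxygenase 1, which degrades heme. It was at 299.39 and 759.19 FPKM in CG mutants, against 1306.08 and 1177.92 FPKM in CG wild types. Both mutant libraries were below both wild-type libraries, and replicate 1 was the lower. The log2 fold change was -1.21 ± 0.35 (SE) (edgeR adjusted p = 0.289).

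Srxn1 and Txnrd1 serve the thioredoxin system, in which thioredoxin reductase 1 recharges thioredoxin and sulfiredoxin restores overoxidised peroxiredoxins. Srxn1 was at 40.74 and 111.58 FPKM in CG mutants and 256.38 and 194.92 FPKM in CG wild types. Its log2 fold change of -1.55 ± 0.36 was the lowest of the 10, with an edgeR adjusted p of 0.242. Txnrd1 was at 72.96 and 167.02 FPKM in CG mutants and 266.64 and 222.44 FPKM in CG wild types, giving a log2 fold change of -1.0 ± 0.31 (edgeR adjusted p = 0.313). For both genes the mutant and wild-type libraries did not overlap, and mutant replicate 2 lay between mutant replicate 1 and the wild types.

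Gclc and Gclm encode the catalytic and the modifier subunit of glutamate-cysteine ligase, the rate-limiting enzyme of glutathione synthesis. Gclc was at 23.06 and 43.19 FPKM in CG mutants and 62.34 and 55.67 FPKM in CG wild types, giving a log2 fold change of -0.80 ± 0.21 (edgeR adjusted p = 0.27). Gclm was at 20.06 and 45.73 FPKM in CG mutants and 66.51 and 58.57 FPKM in CG wild types, giving a log2 fold change of -0.90 ± 0.27 (edgeR adjusted p = 0.299). Both subunits were lower in both mutant libraries without overlap. The ratio of Gclc to Gclm in FPKM was 1.15 and 0.944 in CG mutants and 0.937 and 0.95 in CG wild types, so the subunits moved by similar factors except in mutant replicate 1.

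Slc7a11 encodes the cystine transporter subunit xCT, which supplies cysteine for glutathione. It was at 19.63 and 35.72 FPKM in CG mutants and 49.86 and 50.12 FPKM in CG wild types, with no overlap and a close agreement of the wild types. The log2 fold change was -0.82 ± 0.26 (edgeR adjusted p = 0.326). Slc7a11 was the only one of the 10 genes with counts that were not whole numbers as deposited, so its counts are estimates.

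Gsr encodes glutathione reductase, which returns oxidised glutathione to its reduced form. It went the other way, at 35.70 and 65.51 FPKM in CG mutants and 23.37 and 20.94 FPKM in CG wild types. Both mutant libraries were above both wild-type libraries, and here replicate 2 was the farther from the wild types. The log2 fold change was 1.22 ± 0.20 (edgeR adjusted p = 0.145). The authors' deposited table gives the same log2 ratio, 1.22, with a q-value of 0.000268. That table lists Gclm, Hmox1 and Keap1 as well, with q-values of 0.933 for Gclm and 0.664 for Hmox1 in this comparison. Set against the other reductase of the list, the ratio of Gsr to Txnrd1 in FPKM was 0.489 and 0.392 in CG mutants, against 0.0876 and 0.0941 in CG wild types.

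Ephx1 and Nqo1 encode detoxifying enzymes, microsomal epoxide hydrolase and a quinone reductase. Ephx1 was at 11.51 and 14.18 FPKM in CG mutants and 28.69 and 23.43 FPKM in CG wild types. Its mutant libraries lay close together and apart from the wild types, and its log2 fold change of -0.98 ± 0.15 had the smallest edgeR p of the 10 (adjusted p = 0.128). Nqo1 was at 86.13 and 110.29 FPKM in CG mutants and 111.47 and 111.30 FPKM in CG wild types, giving a log2 fold change of -0.14 ± 0.16 (edgeR adjusted p = 0.761). Mutant replicate 2 was within about 1 FPKM of the wild types, so Nqo1 was not lower beyond the spread of the libraries. Keap1, the gene of the inhibitor of NRF2 and itself a reported target, was at 11.25 and 14.00 FPKM in CG mutants and 15.07 and 13.93 FPKM in CG wild types. The groups overlapped in FPKM, and the log2 fold change was -0.18 ± 0.09 (edgeR adjusted p = 0.51).

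In CPM, counts scaled by the TMM-adjusted library total, both CG mutant libraries were below both CG wild types for 9 of the 10 genes and above them for Gsr. This separation held for 22.5% of all tested genes in the lower direction and 23.2% in the higher one. In FPKM it held for 8 genes in the lower direction, Keap1 being the exception, and for Gsr in the higher one.

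The size of the CG values depended on mutant replicate 1. CPM of every one of the 10 genes, Gsr included, were lower in replicate 1 than in replicate 2, by a median of 0.74 on the log2 scale, where the median over all genes was 0.01. Without replicate 2, 8 of the 10 genes passed the edgeR test, as did 3.55% of all genes: Hmox1 (-1.92), Gclc (-1.22), Gclm (-1.51), Txnrd1 (-1.61), Srxn1 (-2.34), Slc7a11 (-1.22) and Ephx1 (-1.05) lower, and Gsr (0.82) higher. Without replicate 1, Gsr was the 1 gene to pass, as did 0.0272% of all genes, with a log2 fold change of 1.54 ± 0.11 (edgeR adjusted p = 0.00897). The remaining 9 stayed below 0, among them Srxn1 at -1.04, Ephx1 at -0.90, Hmox1 at -0.74 and Txnrd1 at -0.57, with a median over the 10 genes of -0.49. DESeq2 on all libraries called 6 of the 10 genes and 1.5% of all genes. The 6 were Gclc, Gclm, Srxn1, Slc7a11 and Ephx1, lower, with adjusted p-values of 0.00837, 0.0151, 0.0494, 0.0292 and 1.78e-05, and Gsr, higher, with 9.85e-07.

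**Figure D2:**
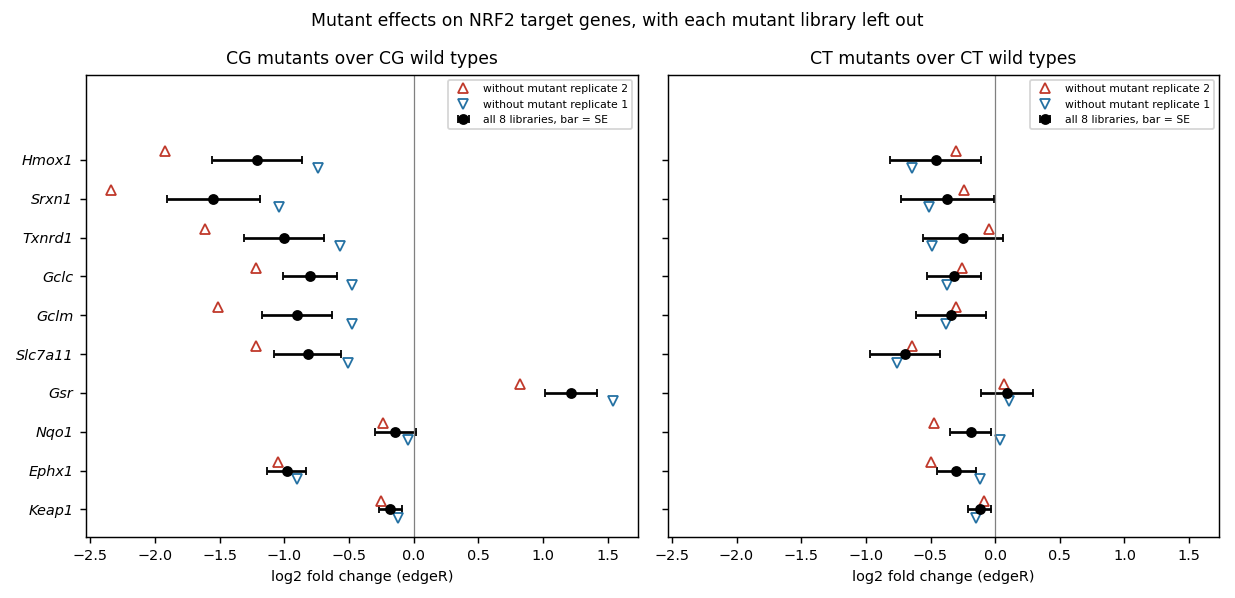
Log2 fold change (edgeR, horizontal axis) of the 10 genes in CG mutants over CG wild types (left) and CT mutants over CT wild types (right). Black points with bars are the value from all 8 libraries ± SE; upward red triangles leave out mutant replicate 2 and downward blue triangles mutant replicate 1; in the CG panel Srxn1 ranges from -2.34 to -1.04 and Gsr from 0.82 to 1.54.

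Markers of several other cell types were also lower in CG mutant replicate 1. The summed FPKM of 11 macrophage and leukocyte markers was 188.2 and 295.5 in CG mutants and 353.6 and 294.3 in CG wild types. The sum of 5 endothelial markers was 3.19 and 10.15 in CG mutants, against 10.06 and 7.41 in CG wild types, and that of 9 fibroblast and tendon markers 1199 and 1656, against 1691 and 1678. The sum of 7 neutrophil markers was 15.26 and 42.95 in CG mutants and 34.99 and 43.49 in CG wild types, and that of 7 erythroid markers 5.09 and 22.31, against 20.76 and 31.61. The 10 chondrocyte markers summed to 9455 and 6195 in CG mutants and 6547 and 6168 in CG wild types. In mutant replicate 2 the macrophage, neutrophil, erythroid and chondrocyte sums were within the range of the wild types. The endothelial sum was just above that range and the fibroblast sum just below it. Single genes weigh heavily in the sums: in this library Cd14 gave 263.28 of 295.5 FPKM and Col2a1 4855.24 of 6195 FPKM. Most single chondrocyte markers were outside their own wild-type range in this library. Col2a1, Matn1, Col11a1 and Hapln1 were below it, and Matn3, Col9a1, Comp and Cnmd above it. Matn1 was at 4.5 FPKM, against 10.53 and 11.09 in CG wild types, and Hapln1 at 64.32 FPKM, against 100.34 and 112.6. Some markers of other cell types were above their range, among them Lyz2 (11.79 FPKM, against 8.42 and 10.83) and Ngp (2.64 FPKM, against 0.82 and 0.85). The part of cell composition in the CG values was not tested. In bulk RNA, fewer cells of a type and less RNA per cell cannot be told apart.

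The second comparison sets CT mutants against CT wild types. Again 9 of the 10 genes had a log2 fold change below 0, as did 50.6% of all tested genes, and Gsr had one above 0. The values ran from -0.70 to 0.09, with a median of -0.31, where that of all genes was 0. None passed the edgeR test (adjusted p-values from 0.958 to 0.998; 0.00696% of all genes passed) or DESeq2 (0.139% of all genes). At an unadjusted edgeR p under 0.05, 1 of the 10 was lower, Slc7a11, where 2.66% of all genes were.

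Slc7a11 was at 10.56 and 9.84 FPKM in CT mutants and 19.59 and 12.45 FPKM in CT wild types. The groups did not overlap, but the wild types differed more from each other than wild-type replicate 2 did from the mutants. The log2 fold change was -0.70 ± 0.27 (edgeR adjusted p = 0.958).

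Hmox1 was at 1648.15 and 1321.91 FPKM in CT mutants and 2300.02 and 1667.88 FPKM in CT wild types, giving a log2 fold change of -0.46 ± 0.35. Srxn1 was at 266.07 and 224.10 FPKM in CT mutants and 331.79 and 285.12 FPKM in CT wild types, giving a log2 fold change of -0.37 ± 0.36. Both genes were without overlap by a narrow margin, which for Hmox1 was the gap between mutant replicate 1 and wild-type replicate 2. Txnrd1 overlapped, at 210.95 and 158.85 FPKM in CT mutants and 237.88 and 190.75 FPKM in CT wild types (log2 fold change -0.25 ± 0.31).

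The glutathione genes were tighter. Gclm was at 72.83 and 70.04 FPKM in CT mutants and 88.89 and 86.92 FPKM in CT wild types, and Gclc at 47.90 and 45.02 FPKM in CT mutants and 59.60 and 53.03 FPKM in CT wild types. For both subunits the libraries of each group lay closer together than the group means did. Their log2 fold changes, -0.34 ± 0.27 and -0.32 ± 0.21, did not pass in edgeR, in the fit of all 4 groups or in a fit of the CT libraries alone. Gsr was at 37.22 and 39.12 FPKM in CT mutants and 33.09 and 36.81 FPKM in CT wild types, giving a log2 fold change of 0.09 ± 0.20.

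Ephx1 was at 18.07 and 23.85 FPKM in CT mutants and 25.26 and 24.97 FPKM in CT wild types, giving a log2 fold change of -0.30 ± 0.15 (edgeR adjusted p = 0.958). Nqo1 was at 42.06 and 60.92 FPKM in CT mutants and 53.99 and 60.59 FPKM in CT wild types, and Keap1 at 21.47 and 21.32 FPKM in CT mutants and 21.22 and 24.55 FPKM in CT wild types. These last 2 genes overlapped between the groups in FPKM, and their log2 fold changes were -0.19 ± 0.16 and -0.12 ± 0.09. Without CT mutant replicate 1 the value of Nqo1 changed sign, to 0.04.

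In CPM, both CT mutant libraries were below both CT wild types for 7 of the 10 genes, where 16.3% of all genes were, and above them for Gsr, where 17.2% were. Nqo1 and Txnrd1 overlapped. In FPKM the lower separation held for 6 genes. Neutrophil and erythroid markers were lower in these mutants as well: their sums were 117.9 and 146.7 FPKM, and 2067 and 2884 FPKM, in CT mutants, against 342.5 and 243.8 FPKM, and 5258 and 3190 FPKM, in CT wild types. The chondrocyte sum was 9070 and 9299 FPKM in CT mutants and 13090 and 11300 FPKM in CT wild types. The part of these markers in the CT values was not tested.

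The CG and CT comparisons share no library, so the position of each gene can be read in both. In CPM, both mutants were below both of their own wild types in each line for 7 of the 10 genes: Hmox1, Gclc, Gclm, Srxn1, Slc7a11, Ephx1 and Keap1. The same was found for 5.06% of all genes tested. In FPKM it held for 6 of them, Keap1 being the exception. Gsr was above in both lines on either scale, but its CT log2 fold change was 0.09 ± 0.20. The shares of all genes above in both lines, or below in both in FPKM, were not computed. The mean of the 2 mutant effects was -0.64 ± 0.10 for Ephx1, -0.96 ± 0.25 for Srxn1, -0.76 ± 0.19 for Slc7a11 and 0.66 ± 0.14 for Gsr. None of the 10 passed in edgeR, with adjusted p-values from 0.243 to 0.591; no gene of the whole table did, so the share passing was 0%. At an unadjusted edgeR p under 0.05, 7 of the 10 were lower and 1 was higher, where 5.4% and 6.06% of all genes were. DESeq2 called 5 of the 10, Gclc, Gclm, Slc7a11 and Ephx1 lower and Gsr higher, and 1.41% of all genes. Without CG mutant replicate 2 edgeR called 8 and 2.17% of all genes, and without CG mutant replicate 1 it called Gsr alone of the 10, and 0.0068% of all genes.

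Whether the CG effect differed from the CT effect was tested as the difference of their log2 fold changes. None of the 10 passed in edgeR, nor did more than 0.0209% of all genes. At an unadjusted edgeR p under 0.05, 2 were lower and 1 was higher, where 2.14% and 2.64% of all genes were. Gsr had the smallest p, with a difference of 1.13 ± 0.28 (edgeR adjusted p = 0.772), followed by Ephx1 at -0.68 ± 0.21 and Srxn1 at -1.17 ± 0.50 (adjusted p = 0.922 and 0.967). The difference for Slc7a11 was -0.12 ± 0.37, for Nqo1 0.05 ± 0.22 and for Keap1 -0.06 ± 0.13. DESeq2 called Gsr, with an adjusted p of 0.0243, and 0.265% of all genes. In edgeR, Gsr (1.46) passed without CG mutant replicate 1, as did 0.034% of all genes, and Gclm (-1.17) and Srxn1 (-1.96) passed without CG mutant replicate 2, as did 0.661%.

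The third comparison sets the wild types of the lines against each other. CT wild types set against CG wild types gave 3 calls among the 10 genes in edgeR, a share close to the 33.7% of all genes that passed. Nqo1 and Slc7a11 were lower in CT wild types, as were 16.8% of all genes, and Keap1 was higher, as were 17%. Nqo1 was at 53.99 and 60.59 FPKM in CT wild types and 111.47 and 111.30 FPKM in CG wild types, giving a log2 fold change of -1.09 ± 0.16 (edgeR adjusted p = 0.00231). Slc7a11 was at 19.59 and 12.45 FPKM in CT wild types and 49.86 and 50.12 FPKM in CG wild types, giving a log2 fold change of -1.76 ± 0.27 (edgeR adjusted p = 0.00278). For both genes the wild types of one line lay far from those of the other.

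Keap1 was at 21.22 and 24.55 FPKM in CT wild types and 15.07 and 13.93 FPKM in CG wild types, giving a log2 fold change of 0.49 ± 0.09 (edgeR adjusted p = 0.00682). It was the 1 call lost when a library was left out, at 0.45 with an edgeR adjusted p of 0.06 without CG wild-type replicate 2, when 14.5% of all genes passed. Gsr, at 33.09 and 36.81 FPKM in CT wild types and 23.37 and 20.94 FPKM in CG wild types, had a log2 fold change of 0.53 ± 0.20 and missed the threshold in edgeR (adjusted p = 0.0765), but was called by DESeq2, as were 31.2% of all genes. Gsr and Gclm (0.36 ± 0.27, adjusted p = 0.324) were called by edgeR when only the wild types were fitted (34.9% of all genes called), or when CG mutant replicate 1 (36.2%) or 2 (36.3%) was left out. In the authors' deposited table the q-values of this comparison were 0.00121 for Gsr, 0.0256 for Gclm, 0.00441 for Hmox1 and 0.00505 for Keap1.

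Hmox1 and Srxn1 had log2 fold changes of 0.55 ± 0.35 and 0.33 ± 0.36 between the wild types, and Gclc, Txnrd1 and Ephx1 values of -0.19 ± 0.21, -0.31 ± 0.31 and -0.18 ± 0.15, none of which passed. In CPM, 5 of the 10 genes were below and 5 above in both CT wild types, where 35.5% and 35.7% of all genes were. In FPKM, 2 were below and 5 above, while 3 overlapped, namely Gclc, Txnrd1 and Ephx1. Erythroid markers summed to 5258 and 3190 FPKM in CT wild types and 20.76 and 31.61 FPKM in CG wild types, and chondrocyte markers to 13090 and 11300 FPKM in CT wild types and 6547 and 6168 FPKM in CG wild types. Line and processing of the cells cannot be told apart in this comparison.

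**Figure D3:**
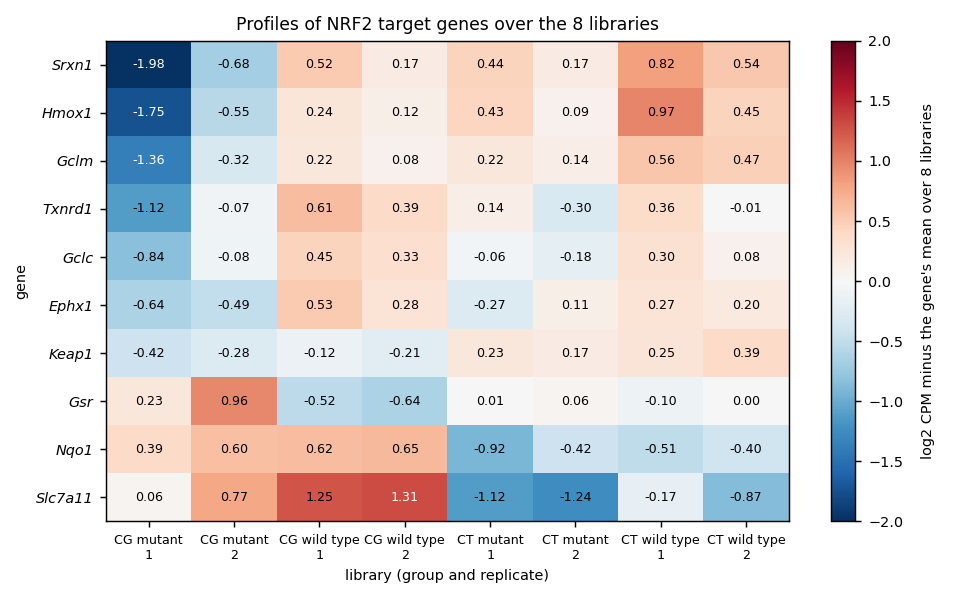
Log2 CPM of the 10 genes in each library, minus the mean of the gene over the 8 libraries (colour scale from -2 to 2, values printed in the cells). CG mutant replicate 1 is lowest for Srxn1 (-1.98), Hmox1 (-1.75) and Gclm (-1.36), while Nqo1 and Slc7a11 are higher in all 4 CG libraries than in any CT library.

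Over the 8 libraries the 10 genes therefore did not share a single profile. Slc7a11 averaged 27.7 ± 11.4 FPKM in CG mutants, 49.99 ± 0.184 in CG wild types, 10.2 ± 0.509 in CT mutants and 16.0 ± 5.05 in CT wild types (SD, n = 2 each). It was thus higher in the CG line, with the lowest CG mutant library just above the highest CT wild type. Srxn1 averaged 76.2 ± 50.1 FPKM in CG mutants, 225.6 ± 43.5 in CG wild types, 245.1 ± 29.7 in CT mutants and 308.5 ± 33.0 in CT wild types. It was thus lowest in CG mutants, and CT mutants and CG wild types overlapped. Likeness of profiles was measured as the root mean square distance of centred log2 CPM over the 8 libraries, for 11504 genes. Nearest to Srxn1 was Hmox1, at 0.16, where the median gene was at 0.89. The next were Ptafr, a receptor for platelet-activating factor, at 0.26 and Cpz, a carboxypeptidase gene, at 0.27, both near 1 FPKM. Gclm ranked 5 (0.30) and Txnrd1 ranked 116 (0.50). Nearest to Slc7a11 were the nuclear receptor gene Nr4a2 at 0.14, the adrenergic receptor gene Adra2a at 0.17 and Nr4a1 at 0.19, where the median gene was at 0.99, and Nqo1 ranked 246 (0.50). All libraries share the split by line, which enters these distances. For Srxn1 the low values of CG mutant replicate 1 enter as well. This library was the lowest for Srxn1 (-1.98) and Hmox1 (-1.75) in centred log2 CPM, and for Ptafr and Cpz, at 0.21 FPKM each.

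Of the regulators, Nfe2l2 was at 56.99 and 73.34 FPKM in CG mutants and 87.16 and 89.08 FPKM in CG wild types, and at 46.08 and 45.81 FPKM in CT mutants and 61.14 and 49.14 FPKM in CT wild types. Both mutants were below both wild types in each line. The log2 fold changes were -0.39 ± 0.13 in the CG line (edgeR adjusted p = 0.344) and -0.30 ± 0.13 in the CT line (edgeR adjusted p = 0.958), so neither passed. Between the wild types Nfe2l2 was lower in the CT line, at -0.80 ± 0.13 (edgeR adjusted p = 0.00378).

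Bach1, the gene of the competing repressor, was also not higher in mutants: its log2 fold change was -0.41 ± 0.22 in the CG line and -0.30 ± 0.21 in the CT line. Sqstm1, which encodes the autophagy receptor p62 that sequesters KEAP1, was at -0.50 ± 0.21 and -0.27 ± 0.21. The small MAF genes Mafg, Maff and Mafk were between -0.31 and -0.05 in the CG line and between -0.41 and -0.15 in the CT line. Cul3, which builds the ligase that KEAP1 serves, was at -0.06 ± 0.09 and 0.00 ± 0.09. In the CG line 7 of the 7 regulators were below 0, where 49.4% of all genes were, with a median of -0.31, and in the CT line the median was -0.28. None of them passed the edgeR test in a mutant comparison, and 2 (Nfe2l2 and Sqstm1) were lower at an unadjusted p under 0.05 in the CG line and 0 in the CT line, where 4.87% and 2.66% of all genes were. Without CG mutant replicate 1 the median of the regulators in the CG line was -0.20 and 0 were lower at that p (2.62% of all genes). Without CG mutant replicate 2 it was -0.42 and 4 were lower (10.5% of all genes), and Nfe2l2 was at -0.29 and -0.50 in these fits.

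A list of 41 other reported NRF2 targets, of which 38 were tested, was set beside the 10 genes. In the CG line 30 of the 38 were below 0, where 49.4% of all genes were, with a median log2 fold change of -0.33. None passed in edgeR. At an unadjusted p under 0.05, 12 were lower and 0 higher, where 4.87% and 6.5% of all genes were. Without CG mutant replicate 1 the count was 7 lower and 0 higher (2.62% and 3.37% of all genes), with a median of -0.15 and 0 genes past the adjusted threshold. Without CG mutant replicate 2 it was 22 lower and 0 higher (10.5% and 9.45% of all genes), with a median of -0.81 and 15 genes past the adjusted threshold. The 4 with the smallest p were Prdx6, a peroxiredoxin gene (-0.78 ± 0.19), Abcc4, an efflux transporter gene (-0.90 ± 0.22), Pgd, of the NADPH-producing pentose phosphate pathway (-0.71 ± 0.19), and Cat, catalase (-0.67 ± 0.19), with edgeR adjusted p-values from 0.244 to 0.287. Prdx6 had a log2 fold change of -0.49 without CG mutant replicate 1 and -1.15 without CG mutant replicate 2. It was at 73.63 and 129.25 FPKM in CG mutants and 176.31 and 179.63 FPKM in CG wild types, the same order of libraries as for Srxn1. In the CT line 28 of the 38 were below 0, where 50.6% of all genes were, with a median of -0.14. None passed in edgeR, and 0 did at an unadjusted p under 0.05. The smallest p-values there belonged to Cat (-0.32 ± 0.19), Ftl1, the ferritin light chain gene (-0.29 ± 0.18), Tkt, transketolase (-0.13 ± 0.08), and Me1, malic enzyme (0.14 ± 0.09). In CPM, 10 of the 38 were below the wild types in both mutants of both lines, where 5.06% of all genes were, and 0 were above.

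Between the wild types edgeR called 6 of these 38 genes lower in the CT line and 3 higher, where it called 16.8% and 17% of all genes. By sign alone, 24 were below 0 and 14 above. Abcc4 was at -1.62 ± 0.22 (edgeR adjusted p = 0.00165), Fth1, the ferritin heavy chain gene, at -1.56 ± 0.24 (0.00257), Gstm1, a glutathione transferase gene, at -1.12 ± 0.27 (0.0157) and Gss, glutathione synthetase, at 0.60 ± 0.12 (0.00902).

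Slc7a11 is known to be driven by ATF4, the factor of the amino acid and stress response, in addition to NRF2. A list of 11 genes, Atf4 itself and reported ATF4 targets, was therefore set beside it. In the CG line the median log2 fold change of these 11 genes was -0.09, with 7 below 0, where 49.4% of all genes were. None was at an unadjusted edgeR p under 0.05, where 4.87% of all genes were lower and 6.5% higher. That median was -0.11 without CG mutant replicate 1 and -0.06 without CG mutant replicate 2, again with 0 at that p. In the CT line the median was -0.48, with all 11 below 0, where 50.6% of all genes were, and 7 lower at an unadjusted p under 0.05, where 2.66% of all genes were. Among the 7 were Trib3 (-0.61 ± 0.16) and Ddit3 (-0.74 ± 0.21). None passed after adjustment (adjusted p-values of at least 0.958 in the CT line). Slc3a2, whose product pairs with xCT in the transporter, was at -0.37 ± 0.19 in the CG line and -0.48 ± 0.19 in the CT line. Between the wild types all 11 were below 0, with a median of -0.88, and edgeR called 8 of them lower in the CT line, where it called 16.8% of all genes lower.

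**Figure D4:**
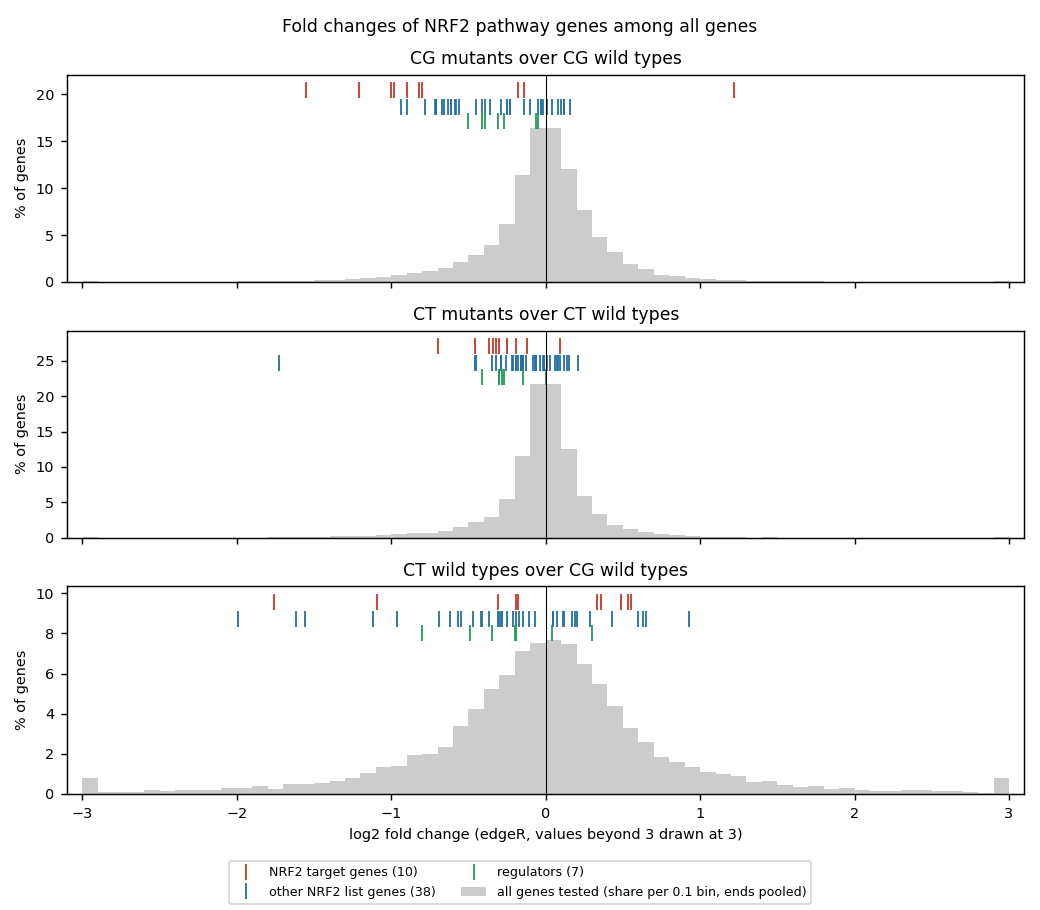
Log2 fold changes (edgeR, horizontal axis) in CG mutants over CG wild types, CT mutants over CT wild types and CT wild types over CG wild types, with grey bars for the share of all 14359 tested genes per bin of 0.1. Ticks mark the 10 NRF2 targets (red), 38 other listed targets (blue) and 7 regulators (green); the red ticks have medians of -0.86, -0.31 and 0.07 from top to bottom.

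Of the 10 genes, Nqo1, Hmox1 and Gsr lie on chromosome 8, which also holds the gene of miR-140 within its host gene Wwp2. By the gene order of GRCm38.p6, 1 protein-coding gene, Nob1, lies wholly between Nqo1 and the miR-140 hairpin, while 299 and 586 lie between it and Hmox1 and Gsr. Wwp2 was at 277.79 and 176.76 FPKM in CG mutants and 146.39 and 139.7 FPKM in CG wild types, and at 64.4 and 101.98 FPKM in CT mutants and 71.84 and 92.13 FPKM in CT wild types. It was higher in both CG mutants and overlapped between the CT groups, and neither difference passed in edgeR on all libraries. In the CG line its log2 fold change was 0.28 without mutant replicate 1 and 1.08 without mutant replicate 2, and it passed in the fit without replicate 2 (edgeR adjusted p = 0.0459). Levels of the arms of miR-140 were not analysed here.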

How the data were processed

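The 10 NRF2 target genes and the lists of regulators, other NRF2 targets, Atf4 with ATF4 targets, and cell type markers were chosen with earlier results of these data known. Per the submitters' processing notes, reads were handled with HISAT2 2.0.4 and the mm9 build; the sources used here name no counting tool or annotation. The authors' deposited table holds, per the file headers, 1 read count and 1 FPKM for each gene in each library. Estimated counts were deposited without normalization. In each library 2282 to 2518 genes had a count that was not whole. The counts were therefore treated as estimates, and all were rounded here. The authors deposited FPKM as their own length- and depth-scaled values, used here for levels and, as log2(FPKM + 1) or log2(FPKM + 0.1), in limma 3.58.1 as alternatives. A second deposited table by the authors has log2 ratios with q-values of 2655 genes, 4 of the 10 among them, made with a tool that the sources do not name. Symbols of 24 genes that had become dates were restored from gene IDs.

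Tests used edgeR 4.0.16 in R 4.3.3 (quasi-likelihood F test, TMM, default filter on low counts, 4 group means over 8 libraries, 4 residual degrees of freedom), on the whole table, with Benjamini-Hochberg adjustment over 14359 genes and a threshold of 0.05. SE was derived from the log2 fold change and its F statistic. DESeq2 1.42.0, RLE factors, no filter, only the groups compared, a replicate block, a term for Ddx3y and leaving out each library were alternatives. Leaving out a CG mutant library for the other gene lists was chosen after seeing the data. All 10 genes and 7 regulators are named; of the other targets, the 4 with the smallest p in each of the CG, CT and wild-type comparisons. Chac1, the further ATF4 gene of that rule, was at -0.44 in the CG line. Genes of similar profile, by the smallest root mean square distance, were sought for the 2 genes with the largest SD of log2 CPM, Slc7a11 and Srxn1. Build-specific positions are those of RefSeq sequences on GRCm38.p6, not of the deposited counts.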

Additional observations from a re-analysis of the deposited data

How the results depend on the processing

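Of 780 values of single genes under alternatives, 731 kept their direction and their side of the threshold, 40 came to pass it, 1 no longer passed and 8 changed sign, all 8 in values that did not pass. DESeq2 called 6 of the 10 genes in the CG comparison, 5 for the mean effect and 1 for the difference of effects, where edgeR called 0; only the wild types fitted gave 5 calls between them, where all libraries gave 3. Leaving out 1 library gave 0 to 8 calls in the CG comparison, 0 to 0 in the CT comparison, 0 to 8 for the mean, 0 to 2 for the difference and 2 to 5 between wild types; a lone library left in a group is assumed to vary like the others. The difference of effects changed sign for Nqo1 at -0.02 with FPKM + 1 and -0.02 with FPKM + 0.1, and ranged from -0.18 to 0.33 for Nqo1, -0.52 to 0.19 for Slc7a11 and -0.14 to 0.01 for Keap1 without single libraries. The CT value of Nqo1 ranged from -0.47 to 0.04. Keap1 between wild types was at 0.45 without CG wild-type replicate 2. The cause of these changes was not tested.

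Replicate numbers are shared by the groups, and the labels state no pairing by number. Deviations of same-numbered libraries correlated at -0.09 in the CG line and 0.25 in the CT line. In the CT line the numbers coincide with Ddx3y counts, 3512 and 3669 in replicate 1 and 30 and 10 in replicate 2. In the CG line they do not, with 2231 and 2 in replicate 1 and 2360 and 2511 in replicate 2. With a replicate block the calls among the 10 genes were 0 in each mutant comparison, 0 for the mean and the difference and 3 between the wild types; none of the 50 calls moved. The term for Ddx3y moved none either. The FPKM fit with 0.1 added shifted the median of all genes by 0.13 between the wild types and called 1592 genes lower and 3207 higher, against 2407 and 2436 in edgeR; the same 3 of the 10 genes were called. With 2 libraries a group, small differences cannot be told from library spread.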
